A study of Mus musculus with 24 samples.

Results

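The genes described here are Odf3l2, Tfcp2l1, Lrrc30, Adgrg1 and Slc9a3r2, which are 5 of the 18669 genes counted by RNA sequencing in mouse quadriceps femoris muscle. They were chosen by their log2 fold changes between HSP990 and vehicle in wild type and Hsf1-/- mice, as large falls after this HSP90 inhibitor in either genotype, with no numeric threshold, so those 2 contrasts are given as a description and are not tested. All 5 genes were found in the table and all 5 passed the filter on low counts. The series held 24 mice, 2 in each of 12 groups made of 3 genotypes and 4 treatments, and tissue was taken 4 h after treatment. Wild type mice and R6/2 mice, which carry a transgene expressing exon 1 of mutant HTT and serve as a model of Huntington's disease, were 12 weeks old in all groups. Hsf1-/- mice, which lack heat shock factor 1, were 10 weeks old in the HS and control groups and 8 weeks old in the HSP990 and vehicle groups. The strain of all groups was labelled CBA x C57BL/6 F1. HS mice were anaesthetised with isoflurane and held at 41.5 °C for 15 min, and their control mice at 36.9 °C for 21 min. HSP990 was given by mouth at 12 mg/kg and compared with vehicle, which the labels name as saline only and the methods as methyl cellulose in saline.

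HSP90 is an abundant chaperone that folds and holds many client proteins, among them kinases, steroid hormone receptors and heat shock factor 1 (HSF1). When HSP90 is inhibited, HSF1 is released and activates the genes of heat shock proteins, while client proteins lose their support. The 5 genes belong to different families. Odf3l2 encodes a relative of the outer dense fibre proteins known from the sperm tail. Tfcp2l1 encodes a transcription factor of the CP2 and grainyhead family, known from pluripotent cells and the kidney. Lrrc30 encodes a protein built of leucine-rich repeats, with no function described here. Adgrg1 encodes the adhesion G protein-coupled receptor GPR56, whose ligands include collagen III and transglutaminase 2. Slc9a3r2 encodes NHERF2, a scaffold that ties membrane transporters and receptors to the cytoskeleton.

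Library totals ranged from 22450177 to 46599238 counts, and levels are CPM, that is counts relative to a library total that was corrected for a few very abundant genes by TMM scaling. The factors of this scaling ran from 1.19 to 1.40 for R6/2 mice and from 0.808 to 0.954 for the other mice, so levels compared between R6/2 and other mice lean on the scaling. Transcripts of Hsf1 were at 21.1 to 29.0 CPM in Hsf1-/- mice and at 45.3 to 68.6 CPM in the other genotypes, with no overlap. Hspa1a, an inducible HSP70 gene, was at 2950 and 2777 CPM in the wild type HSP990 mice. It was at 573 and 725 CPM in the R6/2 HSP990 mice and at 4.93 and 9.15 CPM in the Hsf1-/- HSP990 mice. Summed over 10 markers of muscle fibres, the level was 59130 to 330900 CPM, against 484 to 819 CPM for 10 endothelial markers and at most 0.810 CPM for the 3 of 6 natural killer cell markers that passed the filter. In whole muscle, fewer cells of a type and less RNA per cell cannot be told apart. Nothing in the labels says that the mice of a group differ in litter or day, so p-values measure the spread between these 2 mice per group, pooled over the 12 groups.

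Transcripts of 4 Y-linked genes were at 0 to 4 counts in the 8 wild type and R6/2 mice of the HS experiment and at 3916 to 9392 counts in the other 16 mice. The HS and HSP990 experiments in wild type and R6/2 mice therefore differed in Y-linked expression as well as in what their labels name. So did the HS and control mice of Hsf1-/- genotype from those of wild type.

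Counted per kilobase of exon, Lrrc30 was the most abundant of the 5 genes, with a median of 92.5 CPM per kb over the 12 control and vehicle mice (60.1 to 216). Odf3l2 had a median of 15.7 CPM per kb but the widest spread (6.49 to 101), Adgrg1 14.2 (9.84 to 27.1), Slc9a3r2 6.88 (5.62 to 9.29) and Tfcp2l1 4.32 (1.07 to 13.5). On this scale the range of Lrrc30 lay above those of Adgrg1, Slc9a3r2 and Tfcp2l1, and the range of Adgrg1 lay above that of Slc9a3r2, while the other ranges overlapped.

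In the mm9 build of the genome, Odf3l2 (gene identifier 382384) lies on the minus strand at chr10:79102271-79108483 with 4 exons. Tfcp2l1 (81879) lies on the plus strand at chr1:120524522-120581744 with 15 exons, and Lrrc30 (240131) on the minus strand at chr17:67980305-67982063 with 1 exon. Adgrg1 (14766) lies on the plus strand at chr8:97508503-97538090 with 14 exons, and Slc9a3r2 (65962) on the minus strand at chr17:24776227-24787250 with 7 exons. Small RNA genes lie within the bounds of Tfcp2l1 and Adgrg1, and no other gene of the annotation overlaps the remaining 3.

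Since the 5 genes were chosen for falling under the same drug, the sequence before their start sites was examined. RefSeq promoters (build GRCm38.p6, 250 bases before to 50 after the start) were matched for 4 of the 5 genes, with 1 start each for Tfcp2l1 and Lrrc30 and 2 each for Adgrg1 and Slc9a3r2; Odf3l2 was not matched. The 250 bases before the start of the 2 genes with a single start are shown, in the direction of transcription, as the stretch in which the elements named next were sought, with the TATA box letters TATAAA in capitals, a motif chosen after the sequences had been seen.
Tfcp2l1, chr1:118627695-118627944, plus strand: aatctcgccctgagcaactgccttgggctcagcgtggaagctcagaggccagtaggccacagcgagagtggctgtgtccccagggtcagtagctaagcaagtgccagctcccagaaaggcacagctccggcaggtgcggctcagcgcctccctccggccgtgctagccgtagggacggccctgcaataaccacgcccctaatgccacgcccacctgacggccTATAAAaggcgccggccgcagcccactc
Lrrc30, chr17:67632724-67632973, minus strand: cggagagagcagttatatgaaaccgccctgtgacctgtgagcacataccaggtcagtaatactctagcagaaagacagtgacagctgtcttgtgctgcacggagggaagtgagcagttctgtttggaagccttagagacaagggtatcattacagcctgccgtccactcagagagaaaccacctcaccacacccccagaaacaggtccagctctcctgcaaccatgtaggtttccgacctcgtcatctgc
TATAAA begins 28 bases before the start of Tfcp2l1 and is not found in the other 5 promoters of these genes. It is found anywhere in the 250 bases before the start in 7.59% of the 32851 promoters in the table. Between 40 and 15 bases before the start it is found in 1.99%. None of the 6 promoters held the heat shock element core (GAANNTTC or TTCNNGAA), the glucocorticoid receptor element core AGAACA, the E-box CACGTG, the MEF2 core TAAAAATA or CCAG repeated after 6 bases, the CP2 pattern, on either strand. These were found in 7.86, 8.52, 19, 7.15, 2.72 and 3.44% of all promoters of this length, and the letters' absence from these windows says nothing of binding elsewhere.

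In wild type mice Odf3l2 was at 16.9 and 126 CPM after vehicle and at 2.15 and 3.08 CPM after HSP990. Both treated mice lay below both vehicle mice, and the vehicle mice stood far apart. The log2 fold change was -4.76 with a standard error (SE) of 1.11, rank 1 from the lowest of 11119 genes with a mean of at least 1 CPM, and it was -2.68 without wild type vehicle replicate 2. In Hsf1-/- mice the gene was at 8.10 and 74.3 CPM after vehicle and at 3.42 and 10.2 CPM after HSP990, so that the groups overlapped (log2 fold change -2.64, SE 0.990, rank 4). Without Hsf1-/- vehicle replicate 2, the mouse at 74.3 CPM, the change was -0.29, so the fall in this genotype rested on that mouse.

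Tfcp2l1 was at 36.6 and 125 CPM in wild type vehicle mice and at 8.13 and 7.79 CPM after HSP990, a log2 fold change of -3.34 (SE 0.467) that was -2.20 without wild type vehicle replicate 2. In Hsf1-/- mice it was at 54.4 and 74.1 CPM after vehicle and at 30.4 and 26.8 CPM after HSP990 (-1.17, SE 0.425). The treated mice lay below the vehicle mice in both genotypes, and the treated Hsf1-/- mice stayed above the treated wild type mice.

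Lrrc30 was at 197 and 380 CPM in wild type vehicle mice and at 85.9 and 111 CPM after HSP990 (log2 fold change -1.55, SE 0.316). In Hsf1-/- mice it was at 260 and 157 CPM after vehicle and at 63.6 and 61.3 CPM after HSP990 (-1.74, SE 0.319). The groups did not overlap in either genotype.

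Adgrg1 was at 42.3 and 67.7 CPM in wild type vehicle mice and at 19.9 and 28.6 CPM after HSP990 (log2 fold change -1.18, SE 0.287), and in Hsf1-/- mice at 71.1 and 49.4 against 25.1 and 15.9 CPM (-1.55, SE 0.289). Slc9a3r2 was at 14.1 and 15.7 CPM in wild type vehicle mice and at 5.84 and 6.37 CPM after HSP990 (-1.28, SE 0.204), and in Hsf1-/- mice at 16.8 and 21.0 against 7.49 and 6.96 CPM (-1.38, SE 0.202). Both genes were separated between treated and vehicle mice in each genotype, and the mice of each group lay close together for Slc9a3r2. In rank of fall, these genes and Lrrc30 held ranks 50 to 101 of the 11119 genes in wild type mice and 23 to 45 in Hsf1-/- mice, and Tfcp2l1 held ranks 9 and 79. Differences between these 2 genotypes in the size of the falls were not tested, since the falls chose the genes.

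**Figure D1:**
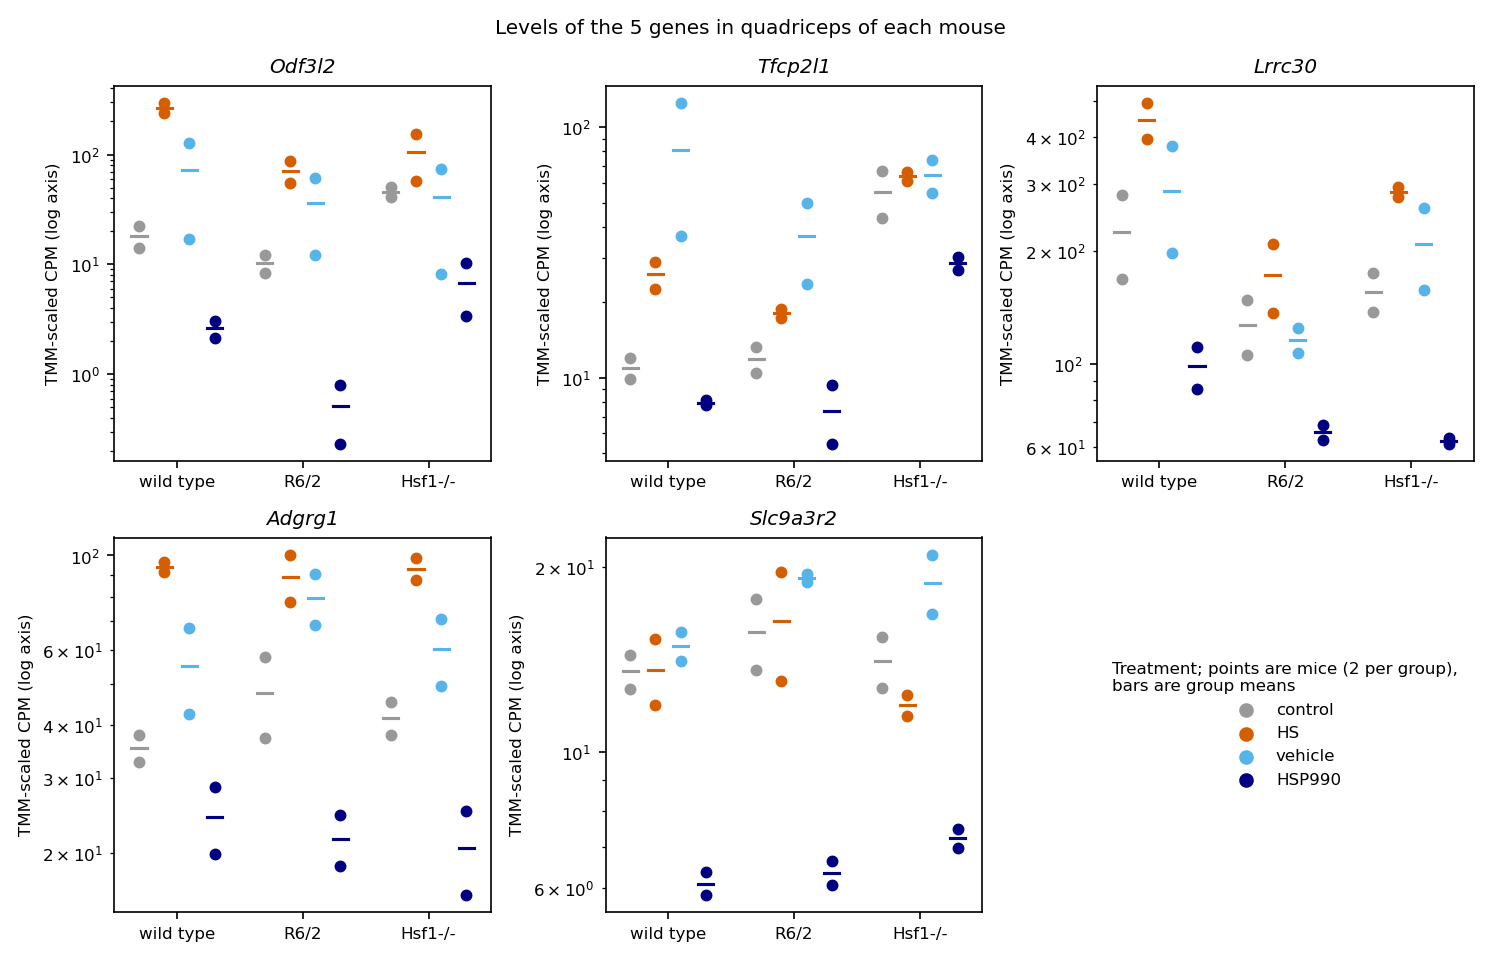
TMM-scaled CPM (log axis) of each gene in each of the 24 mice, by genotype along the horizontal axis and by treatment in colour; points are mice, 2 per group, and short bars are group means. After HSP990 Slc9a3r2 is at 5.84 to 7.49 CPM in the 6 treated mice and at 11.4 to 21.0 CPM in the other 18, while the vehicle mice of Odf3l2 are far apart in each genotype. Of the treated mice, those of wild type and Hsf1-/- genotype took part in choosing the genes.

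The R6/2 mice given HSP990 or vehicle were not used by the rule that chose the genes. They ask whether the falls were also found in a model of Huntington's disease. Earlier results of these data were known when the genes were chosen, and the test took its spread from all 24 libraries. All 5 genes were lower after HSP990 in R6/2 mice, and 4 of the 5 fell past the threshold (adjusted p below 0.05): Odf3l2, Tfcp2l1, Adgrg1 and Slc9a3r2. Among all 13754 genes tested, 197 (1.43%) were called in this comparison, 65 of them rising and 132 falling, with a median over all genes of 0.0106 on the log2 scale.

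Odf3l2 was at 12.1 and 60.9 CPM in R6/2 vehicle mice and at 0.233 and 0.793 CPM after HSP990, which rest on 9 and 38 counts. The treated mice lay far below the vehicle mice. The log2 fold change was -6.09 (SE 1.23, 95% interval -8.70 to -3.49, adjusted p = 0.017 by the quasi-likelihood test of edgeR, adjusted after Benjamini and Hochberg over all genes). Tfcp2l1 was at 23.7 and 49.8 CPM after vehicle and at 5.45 and 9.34 CPM after HSP990, again with no overlap (log2 fold change -2.31, SE 0.444, adjusted p = 0.013, edgeR).

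Adgrg1, the receptor GPR56, was at 68.6 and 90.3 CPM in R6/2 vehicle mice and at 24.6 and 18.6 CPM after HSP990. Its log2 fold change was -1.88 (SE 0.290, adjusted p = 0.0023, edgeR). Slc9a3r2, the NHERF2 scaffold, was at 18.9 and 19.5 CPM after vehicle and at 6.64 and 6.07 CPM after HSP990, with close agreement between the mice of each group. Its log2 fold change was -1.60 (SE 0.200, adjusted p = 0.00029, edgeR), the smallest adjusted p of the 5. Lrrc30 was at 125 and 107 CPM after vehicle and at 62.8 and 68.8 CPM after HSP990; the groups did not overlap, but the log2 fold change of -0.82 (95% interval -1.48 to -0.16) did not pass the threshold (adjusted p = 0.34).

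The calls rested on single mice to different degrees. Slc9a3r2 was called without each of the 4 mice compared. Adgrg1 was called without all but R6/2 HSP990 replicate 2 (adjusted p = 0.059, edgeR). Odf3l2 and Tfcp2l1 were lost without R6/2 vehicle replicate 2 (log2 fold changes -4.50 and -1.67, adjusted p = 0.17 and 0.2), without R6/2 HSP990 replicate 1 (0.24 and 0.21) and without R6/2 HSP990 replicate 2 (0.12 and 0.052). In a fit of the 4 libraries alone, in which 8 genes were called in all, none of the 5 was called, with adjusted p from 0.061 for Slc9a3r2 to 0.16 for Tfcp2l1 among the 4.

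**Figure D2:**
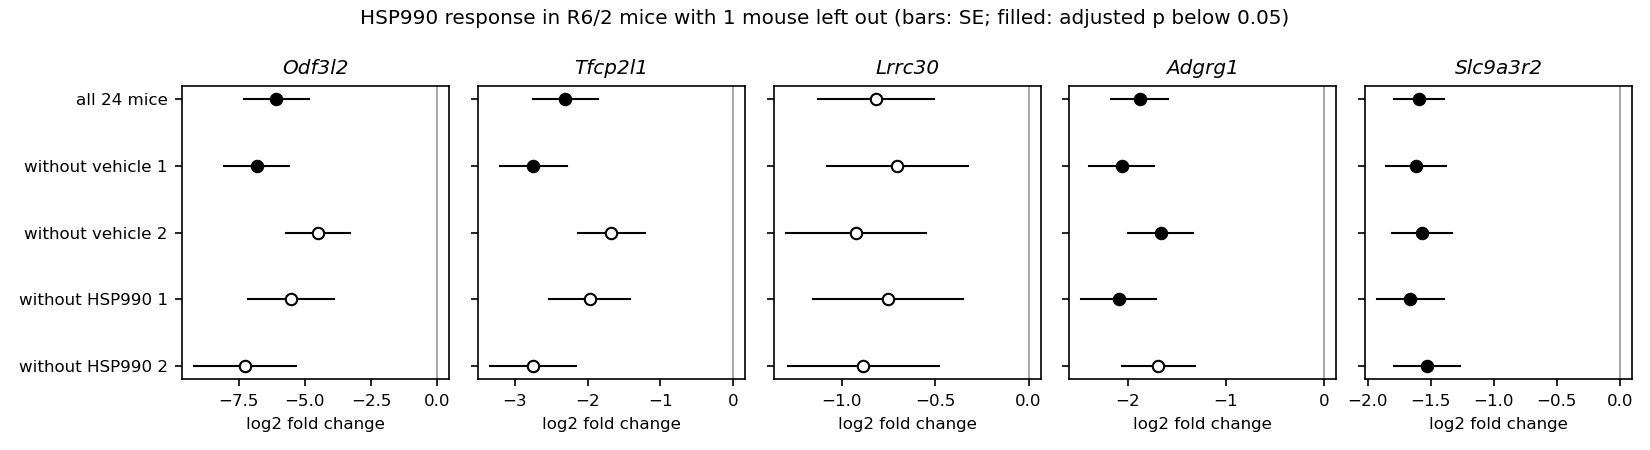
Log2 fold change of each gene between R6/2 HSP990 and R6/2 vehicle mice with all 24 mice in the fit and without each of the 4 mice compared; bars are SEs and filled points have an adjusted p below 0.05. All values are below 0, Slc9a3r2 stays called in each fit, and Odf3l2 moves from -6.09 to -4.50 without vehicle replicate 2.

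Markers of other cell types were followed in the same mice. All 10 muscle fibre markers were higher in R6/2 mice after HSP990, with summed levels of 67190 and 114600 CPM against 59130 and 68070 CPM after vehicle, and 0 of them were called by edgeR or DESeq2 (5 at an unadjusted p below 0.05, which 9.5% of all genes had). Of 10 endothelial markers, 8 were higher and 0 were called by either tool, with 1 at an unadjusted p below 0.05 (summed levels 511 and 727 against 487 and 524 CPM). Of 7 macrophage and leukocyte markers, 6 were lower and 1, Cd163, was called downwards (summed levels 57.8 and 62.6 against 71.6 and 103 CPM), where 1.43% of all genes were called. All 6 slow fibre markers were lower (median log2 fold change -0.45), with summed levels of 114 to 314 CPM against 219 to 333 CPM, and 4 of 5 adipocyte markers were higher (median 0.52), with 62.2 to 81.5 CPM against 27.7 to 53.2 CPM. Of 6 fibroblast markers 4 were lower (median -0.015, 972 to 1218 against 1069 to 1098 CPM). In these 3 lists 0 markers were called by edgeR or DESeq2, and 1, of the fibroblast list, had an unadjusted p below 0.05. The part of all these markers in the falls was not tested.

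HS is the other treatment of the series that activates HSF1. In wild type mice 1 of the 5 genes, Adgrg1, rose past the threshold after HS, and the values of Odf3l2, Tfcp2l1 and Lrrc30 were higher without passing it. Over all genes 283 of 13754 (2.06%) were called. Adgrg1 was at 32.8 and 37.8 CPM in control mice and at 91.5 and 96.4 CPM after HS, more than the whole spread within either group (log2 fold change 1.41, SE 0.286, adjusted p = 0.014, edgeR). The call did not survive leaving out any single mouse (adjusted p from 0.063 to 0.19).

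Odf3l2 was at 14.2 and 22.2 CPM in wild type control mice and at 239 and 294 CPM after HS. The groups were far apart and the log2 fold change of 3.87 was the largest of the 5, but with the spread of this gene over all groups (SE 1.01) it missed the threshold (adjusted p = 0.059, edgeR). It passed with DESeq2 (adjusted p = 0.0065), with no filter on low counts (0.037) and in a fit of the 4 libraries alone (7.2e-05).

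Tfcp2l1 was at 9.89 and 12.0 CPM in wild type control mice and at 29.1 and 22.6 CPM after HS (log2 fold change 1.24, adjusted p = 0.2, edgeR). Lrrc30 was at 168 and 281 CPM in control mice and at 494 and 397 CPM after HS (0.99, adjusted p = 0.14, edgeR). Neither gene's groups overlapped, and both were called by DESeq2 (adjusted p = 0.049 and 0.032), Tfcp2l1 also in the fit of the 4 libraries alone (0.0062). Slc9a3r2 was at 12.7 and 14.4 CPM in control mice and at 15.3 and 11.9 CPM after HS, with overlapping groups, a log2 fold change of 0.01 and a 95% interval of -0.41 to 0.43 (adjusted p = 1, edgeR).

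In R6/2 mice 0 of the 5 genes were called after HS, in a comparison that called 6 genes in all (0.0436%). Odf3l2 was at 12.2 and 8.31 CPM in R6/2 control mice and at 54.9 and 87.1 CPM after HS (log2 fold change 2.79, adjusted p = 0.39, edgeR). Adgrg1 was at 57.8 and 37.3 against 100.5 and 78.0 CPM (0.91, adjusted p = 0.29). Both genes were higher in each HS mouse than in each control mouse. Tfcp2l1 was also separated, at 13.2 and 10.5 against 17.3 and 18.8 CPM (0.61, adjusted p = 0.76), whereas Lrrc30 (147 and 106 against 136 and 209 CPM) and Slc9a3r2 (17.7 and 13.6 against 19.6 and 13.0 CPM) overlapped. At an unadjusted p below 0.05 there were 2 of the 5 genes, Odf3l2 (0.011) and Adgrg1 (0.0051), against 8.12% of all genes, DESeq2 called 0, and the fit of the 4 libraries alone called Odf3l2 (adjusted p = 0.044).

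In Hsf1-/- mice 0 of the 5 genes were called after HS by edgeR, where 1 gene was called in all (0.00727%). Adgrg1 was at 37.9 and 45.3 CPM in Hsf1-/- control mice and at 98.5 and 87.7 CPM after HS, a log2 fold change of 1.16 (95% interval 0.56 to 1.76, adjusted p = 0.14), and was called by DESeq2 (adjusted p = 0.0084). Lrrc30 was at 174 and 137 against 279 and 295 CPM (0.88, adjusted p = 0.35). Both genes were higher in each HS mouse, without overlap, and both had an unadjusted p below 0.05 (0.00081 and 0.012), as had 8.8% of all genes. In the fit of the 4 libraries alone both were called (adjusted p = 0.021 and 0.043, edgeR). Odf3l2 was at 50.6 and 41.1 against 57.0 and 153 CPM (1.20, adjusted p = 0.81), Tfcp2l1 at 66.9 and 43.5 against 65.9 and 61.1 CPM (0.20, adjusted p = 0.95) and Slc9a3r2 at 15.4 and 12.7 against 12.4 and 11.4 CPM (-0.24, adjusted p = 0.83). Tfcp2l1 overlapped between the groups, while Odf3l2 was higher and Slc9a3r2 lower in both HS mice.

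The HS responses of the genotypes were also tested against each other. Between R6/2 and wild type mice 0 of the 5 genes were called (10 of all genes, 0.0727%), with log2 differences from -1.08 for Odf3l2 (95% interval -3.82 to 1.66) to 0.05 for Slc9a3r2. Between Hsf1-/- and wild type mice 0 of the 5 were called as well (22 of all genes, 0.16%), with differences from -2.67 for Odf3l2 (-5.43 to 0.08) to -0.10 for Lrrc30 (-1.03 to 0.82). None of these differences had an unadjusted p below 0.05 (edgeR), against 4.86 and 3.72% of all genes. The lowest was 0.056, for Odf3l2 between Hsf1-/- and wild type mice. DESeq2 called 0 of the 5 genes in both tests. The Hsf1-/- HS and control mice were 10 weeks old with at least 4781 Y-linked counts, and the wild type ones 12 weeks old with 0. The part of age and of Y-linked expression in that test was not tested.

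The rule that chose the genes did not use R6/2 libraries. In R6/2 mice the responses to HSP990 and to HS were set against each other by a test of their difference. It called 4 of the 5 genes, all with the lower change after HSP990, where 224 of all genes (1.63%) were called, 183 of them lower. The log2 difference was -8.88 for Odf3l2 (SE 1.57, adjusted p = 0.0058, edgeR), -2.91 for Tfcp2l1 (0.613, adjusted p = 0.019), -2.79 for Adgrg1 (0.403, adjusted p = 0.0019) and -1.66 for Slc9a3r2 (0.277, adjusted p = 0.0043). For Lrrc30 it was -1.26 (95% interval -2.19 to -0.34, adjusted p = 0.23). In a fit of the 8 libraries alone, Odf3l2 and Adgrg1 stayed called (both 0.037), whereas Tfcp2l1 (adjusted p = 0.067) and Slc9a3r2 (0.09) did not, where 23 genes were called in all. With all groups in the fit, Adgrg1 and Slc9a3r2 were called without each of the 8 mice, the call of Odf3l2 depended on R6/2 control replicate 2 and R6/2 HSP990 replicate 1 (adjusted p = 0.059 and 0.051 without them), and that of Tfcp2l1 on each of 4 mice (control replicate 2, HS replicate 1, vehicle replicate 2 and HSP990 replicate 1, adjusted p from 0.054 to 0.13). The mice of both experiments differed in Y-linked transcripts and in handling, and the part of either in these differences was not tested.

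**Figure D3:**
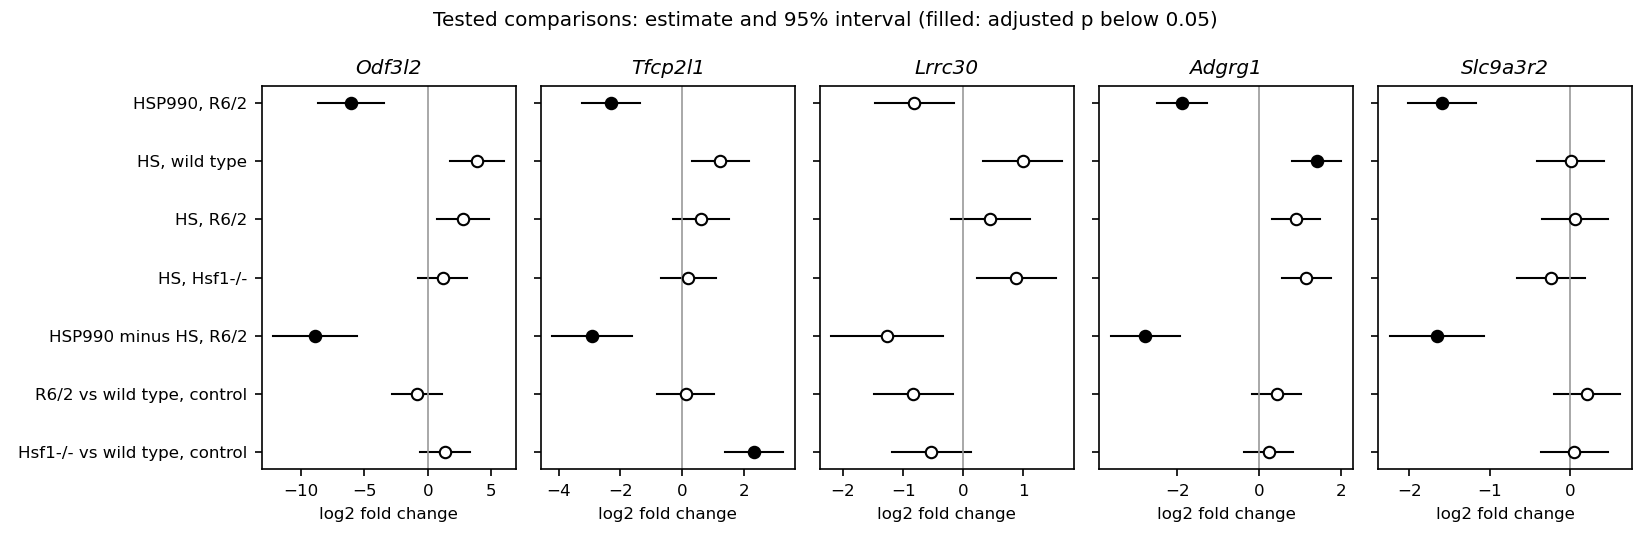
Log2 fold change of each gene with its 95% interval in 7 comparisons that did not choose the genes; filled points have an adjusted p below 0.05 (edgeR) and each panel has its own horizontal scale. Filled points stand left of 0 in 4 genes, both for HSP990 and for HSP990 minus HS in R6/2 mice. They stand right of 0 for Adgrg1 after HS in wild type mice (1.41) and for Tfcp2l1 in Hsf1-/- against wild type control mice (2.33).

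Between control mice of different genotypes, Tfcp2l1 in Hsf1-/- mice was the 1 call among the 5 genes by edgeR with all 24 libraries in the fit. It was at 9.89 and 12.0 CPM in wild type control mice and at 66.9 and 43.5 CPM in Hsf1-/- control mice, a log2 fold change of 2.33 (SE 0.447, adjusted p = 0.018, edgeR), in a comparison that called 266 genes (1.93%). The groups did not overlap, but the call was lost without any 1 of the 4 mice (adjusted p from 0.058 to 0.16). These groups also differed in age and in Y-linked transcripts. In wild type and R6/2 control mice, which had 0 to 4 Y-linked counts, Tfcp2l1 was at 9.89 to 13.2 CPM. In the vehicle mice of the same genotypes, which had at least 4612, it was at 23.7 to 125 CPM. The HS mice of these genotypes, with 0 Y-linked counts, were at 17.3 to 29.1 CPM. Their HSP990 mice, with at least 3923, were at 5.45 to 9.34 CPM. Control and vehicle mice also differed in handling. Vehicle mice of the wild type group (36.6 and 125 CPM) and of the Hsf1-/- group (54.4 and 74.1 CPM) overlapped. The part of age and of Y-linked expression in the difference between control mice was not tested.

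Among the other genes, Odf3l2 was at 14.2 and 22.2 CPM in wild type and at 50.6 and 41.1 CPM in Hsf1-/- control mice, without overlap (log2 fold change 1.33, 95% interval -0.64 to 3.30, adjusted p = 0.48, edgeR), and was called in the fit of the 4 libraries alone (1.34, adjusted p = 0.022). Lrrc30, Adgrg1 and Slc9a3r2 had log2 fold changes of -0.53, 0.24 and 0.05 in Hsf1-/- control mice (adjusted p = 0.39, 0.71 and 0.92).

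In R6/2 against wild type control mice 0 of the 5 genes were called by edgeR, although this comparison called 1711 of all genes (12.4%). Lrrc30 was at 147 and 106 CPM in R6/2 and at 168 and 281 CPM in wild type control mice, without overlap (log2 fold change -0.83, unadjusted p = 0.016, adjusted p = 0.092), and was the 1 gene of the 5 with an unadjusted p below 0.05 (26.7% of all genes) and the 1 called by DESeq2 (adjusted p = 0.041). The other log2 fold changes were -0.83 for Odf3l2, 0.11 for Tfcp2l1, 0.43 for Adgrg1 and 0.21 for Slc9a3r2. With library totals as the only scaling, the median of all genes here moved from 0.01 to 0.55, and Adgrg1 and Slc9a3r2 with it, to 0.98 and 0.76 (adjusted p = 0.011 and 0.0072). Of the 10 muscle fibre markers 8 were called lower in R6/2 control mice, with summed levels of 60130 and 92920 CPM against 252200 and 269600 CPM in wild type control mice, and their part in the values of the 5 genes was not tested.

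The falls after HSP990 are measured from the vehicle mice, which were unlike each other in some of these genes. In each genotype 1 vehicle mouse had far more Odf3l2 than the other, by 7.47 times in wild type, 5.02 times in R6/2 and 9.17 times in Hsf1-/- mice. The control mice of the HS experiment differed by at most 1.56 times in this gene. Tfcp2l1 was higher in the same vehicle mouse in each genotype, namely replicate 2. So was Slc9a3r2, by 1.11 times in wild type, 1.03 times in R6/2 and 1.25 times in Hsf1-/- mice. Lrrc30 was higher in that mouse in wild type mice and Adgrg1 in wild type and R6/2 mice, whereas Lrrc30 in R6/2 mice and both genes in Hsf1-/- mice were lower in it. Vehicle means could also stand above control means. Mean Tfcp2l1 was 80.67 CPM in wild type vehicle, 10.94 in control and 7.959 in HSP990 mice. In R6/2 mice these means were 36.72, 11.85 and 7.398 CPM, and in Hsf1-/- mice 64.26, 55.18 and 28.58 CPM. Vehicle and control means of Odf3l2 were 71.67 and 18.21 CPM in wild type mice. In R6/2 mice they were 36.52 and 10.25 CPM and in Hsf1-/- mice 41.18 and 45.86 CPM, with overlap in each genotype. The part of this gap in the falls was not tested.

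Wild type and Hsf1-/- HSP990 mice took part in choosing the genes, so a low place of those groups was in part set in advance. Ordered by group mean, the 3 HSP990 groups were the 3 lowest of the 12 for Odf3l2, Lrrc30, Adgrg1 and Slc9a3r2. For Odf3l2 they ran from R6/2 (0.513 CPM) through wild type (2.61) to Hsf1-/- mice (6.81), and the last overlapped with R6/2 control mice. For Lrrc30 wild type HSP990 mice (98.4 CPM) overlapped with R6/2 vehicle mice (116 CPM). For Adgrg1 and Slc9a3r2 all 6 treated mice lay below the other 18, Adgrg1 at 15.9 to 28.6 CPM against 32.8 to 100.5 CPM. Tfcp2l1 differed from the rest, since its Hsf1-/- HSP990 mice (30.4 and 26.8 CPM) lay above the wild type and R6/2 control mice. At the upper end, wild type HS was the highest group for Odf3l2, Lrrc30 and Adgrg1, clear of the next group for Odf3l2 and Lrrc30 and overlapping with it for Adgrg1. The highest group was wild type vehicle for Tfcp2l1 and R6/2 vehicle for Slc9a3r2, both overlapping with the next.

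Relatives of the 5 genes were followed as groups. Of 5 CP2 and grainyhead factors tested, the family of Tfcp2l1, 0 were called by edgeR or DESeq2 after HSP990 in R6/2 mice or after HS in wild type mice, with 1 at an unadjusted p below 0.05 in each (9.5 and 11.8% of all genes). DESeq2 gave no adjusted p for 2 of the 5 in each of these comparisons, so it could not call them. Tfcp2 and Ubp1, the 2 well expressed members, had log2 fold changes of 0.34 and -0.07 after HSP990 in R6/2 mice. Of 4 outer dense fibre genes tested beside Odf3l2, 0 were called by either tool in these comparisons and 0 had an unadjusted p below 0.05, and Odf2 had a log2 fold change of -0.03 after HSP990. DESeq2 gave no adjusted p for 1 of these 4 after HSP990. No change after treatment was thus called among these relatives in these 2 comparisons.

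Adgrg1 was set beside its ligands and beside other adhesion receptors. Of 22 adhesion G protein-coupled receptors tested, 17 were lower after HSP990 in R6/2 mice (median log2 fold change -0.27, all genes 0.0106) and 1 was called, Adgrf5 (-0.59, adjusted p = 0.036, edgeR). Of all genes, 1.43% were called in this comparison. Tgm2, which encodes the GPR56 ligand transglutaminase 2, fell after HSP990 in R6/2 mice by 1.11 on the log2 scale (SE 0.163, adjusted p = 0.0014) and rose after HS in wild type mice by 1.12 (adjusted p = 0.0013). Col3a1, which encodes the ligand collagen III, had -0.0035 and -0.09 in these comparisons (adjusted p = 1 and 0.97). Tgm2 thus had the signs of Adgrg1 in both, and of 10 genes of GPR56 ligands and signalling tested, it was the 1 called in each (1.43 and 2.06% of all genes called).

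Of 13 NHERF scaffolds and partners tested beside Slc9a3r2, 11 were lower after HSP990 in R6/2 mice (median -0.22) and 0 were called by edgeR or DESeq2, with 4 at an unadjusted p below 0.05 (9.5% of all genes). DESeq2 gave no adjusted p for 2 of the 13. Sgk1, a kinase bound by NHERF2, had a log2 fold change of -0.86 (adjusted p = 0.24) and a difference between HSP990 and HS of -2.13 (adjusted p = 0.012). In wild type mice 9 of the 13 were higher after HS (median 0.31), and 4 had an unadjusted p below 0.05 (11.8% of all genes). The 1 called by edgeR (2.06% of all genes called) was Podxl, a membrane protein tied to NHERF2, which fell by 0.55 (adjusted p = 0.046). DESeq2 called 3 of the 13 in that comparison, where it called 542 of the 13754 genes. Of 43 numbered leucine-rich repeat genes tested beside Lrrc30, 2 were called lower after HSP990 in R6/2 mice (1.43% of all genes called). These were the volume-regulated anion channel genes Lrrc8a (-1.25, adjusted p = 0.016) and Lrrc8c (-1.19, adjusted p = 0.0094). After HS in wild type mice Lrrc8a rose (1.33, adjusted p = 0.0099), where 2.06% of all genes were called.

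The glucocorticoid receptor is a client of HSP90, so genes it is known to activate were followed as a list of 24. After HSP990 in R6/2 mice 23 of the 24 were lower and 14 were called, all downwards, with a median log2 fold change of -1.86 (1.43% of all genes called, median 0.0106). After HS in wild type mice all 24 were higher and 15 were called upwards, with a median of 2.11 (2.06% of all genes called). After HS in R6/2 mice 22 of the 24 were higher (median 0.93) and in Hsf1-/- mice all 24 (median 1.10), with 0 called by edgeR. In these comparisons 12 and 14 were at an unadjusted p below 0.05 (8.12 and 8.8% of all genes). DESeq2 called 6 and 5 of the 24, where it called 127 and 161 of the 13754 genes. Summed over the list, the level was 4126 and 7124 CPM in R6/2 vehicle mice and 2552 and 1708 CPM in R6/2 HSP990 mice, and 1934 and 2193 CPM in wild type control mice and 9740 and 7638 CPM in wild type HS mice. Among the members, the stress-induced Ddit4 fell by 4.77 after HSP990 in R6/2 mice (adjusted p = 0.014, edgeR) and rose by 5.71 after HS in wild type mice (adjusted p = 0.0047), and Mt2, a metallothionein, fell by 6.03 (adjusted p = 0.0096) and rose by 4.93 (adjusted p = 0.014). In the vehicle mouse of each genotype with more Odf3l2 and Tfcp2l1 the list summed to 7124 CPM in R6/2, 5504 CPM in wild type and 4212 CPM in Hsf1-/- mice, and in the other vehicle mouse to 4126, 5092 and 4810 CPM. The sum was the higher one in that mouse in wild type and R6/2 mice and the lower one in Hsf1-/- mice. The list's part in the falls of the 5 genes was not tested.

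Genes with the most similar pattern were sought by Pearson's correlation of log2(CPM + 0.5) over the 24 libraries among 11118 other genes, and are given as a description, since the libraries share groups and treatments. Odf3l2 was most like Lrg1 (r = 0.956), Ip6k3 (0.927) and Slc7a8 (0.925), and Adgrg1 was most like Map3k6 (0.952), Kcna5 (0.951) and Arhgap27 (0.951). Lrrc30 was most like Dusp7 (0.919), Riok3 (0.863) and Prickle3 (0.858). Tfcp2l1 was most like Adgrf5 (0.854), Zbtb16 (0.854) and Klf9 (0.842), and Slc9a3r2 most like Timp4 (0.843), Kank3 (0.843) and Pde4c (0.825). Of these 15 genes, Klf9, Map3k6 and Zbtb16 (3 genes) also stand in the glucocorticoid receptor list. Over the means of the 12 groups the correlations were 0.87 to 0.978. Among the 5 genes themselves r ran from 0.483 for Tfcp2l1 and Lrrc30 to 0.792 for Odf3l2 and Lrrc30. The libraries that chose the genes for their falls are among the 24, so positive values between the 5 were in part set in advance.

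**Figure D4:**
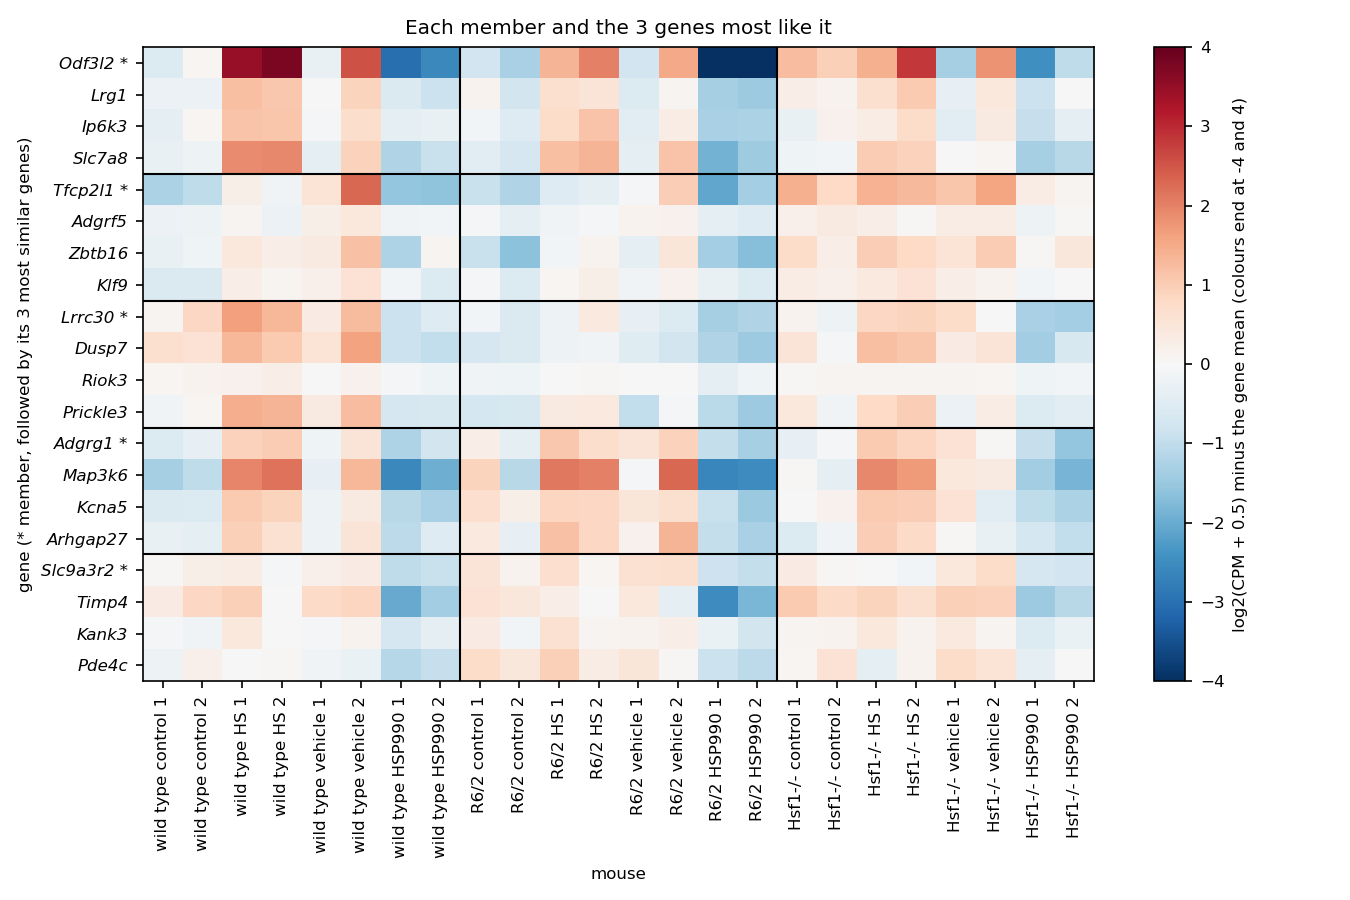
Log2(CPM + 0.5) of each of the 5 genes (marked *) and of its 3 most similar genes, minus the mean of the gene, in each of the 24 mice; red is above and blue below the gene's mean, and colours end at -4 and 4. The HSP990 mice are mostly blue in all 5 blocks, and the HS mice are red for Odf3l2, Lrrc30 and Adgrg1 in wild type mice.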

How the data were processed

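Quadriceps RNA of 24 mice, 2 in each of 12 groups, was sequenced. The authors made strand-specific libraries, mapped the paired reads to mm9 with Bowtie and deposited raw counts per gene, listed by NCBI gene number, with no normalization; the counting program and the annotation are not given in the sources used here. Groups and replicate numbers came from the labels. Of 18669 gene numbers, 18594 matched a RefSeq symbol, and 2855 genes were at 0 in every library. Library totals of 22450177 to 46599238 counts set the precision.

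The filter of the study's methods (2 or more counts in 10 or more libraries) kept 13754 genes. Counts were scaled by TMM, fitted as 12 groups (12 residual degrees of freedom) and tested with edgeR 4.0.16 quasi-likelihood tests (limma 3.58.1, R 4.3.3). P-values were adjusted by Benjamini-Hochberg over all genes tested, at a threshold of 0.05. An exact two-sided permutation of 2 against 2 mice cannot give a p below 0.333. The procedure was tested on simulated data. Alternatives were scaling by RLE or by library size only, a replicate block, no filter, only the groups compared, DESeq2 1.42.0 (the authors' tool) and leaving out each mouse.

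The 5 genes were chosen for their falls after HSP990 in wild type or Hsf1-/- mice, and these 5 genes, the lists and the tests were chosen with earlier results of these data known. Named beyond the 5 were called list genes (at most 4 per list and comparison), checks of labels and treatment and the 3 most similar genes of each; Tfcp2, Ubp1, Odf2, Col3a1 and the choice of 2 of the called glucocorticoid genes were made after their values were seen. Over genes with a mean of at least 1 CPM, same-numbered mice did not as a rule deviate together. Correlations of deviations ran from -0.385 to 0.393 over 66 pairs of groups (median -0.0208, 12 pairs over 0.1). Numbers were therefore not taken to pair the samples, although vehicle replicate 2 was the higher mouse for Odf3l2, Tfcp2l1 and Slc9a3r2 in each genotype. Positions are from the mm9 annotation, promoters from RefSeq on GRCm38.p6.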

Additional observations from a re-analysis of the deposited data

Results flagged for a closer look

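Over all genes, 10 genes responded to HS differently in R6/2 than in wild type mice, and 22 did so in Hsf1-/- against wild type mice (edgeR, adjusted p below 0.05). None of the 5 genes was among them. The Hsf1-/- and wild type mice compared here also differed in age and in Y-linked transcripts. Both comparisons were singled out because responses of 2 genotypes to the same treatment differed by a test of the difference itself.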

How the results depend on the processing

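Of the tested values of the 5 genes under the alternatives, 449 kept their direction and side of the threshold, 27 lost and 15 gained the threshold, and 19, none of them called, changed sign. Of the values of the contrasts that chose the genes 99 moved by less than the spread between the mice compared, and 1 moved by more (Odf3l2 in wild type mice, -2.68 without wild type vehicle replicate 2). That spread holds the gap between the vehicle mice, so staying within it is no sign of stability: Odf3l2 in Hsf1-/- mice was -0.29 without Hsf1-/- vehicle replicate 2 and Tfcp2l1 in wild type mice -2.20 without wild type vehicle replicate 2. The cause of these changes was not tested. Signs changed for Slc9a3r2 after HS with library size only (-0.13 in wild type and -0.045 in R6/2 mice) and with a replicate block (-0.0016 in wild type mice). With 1 mouse left out, Slc9a3r2 ranged from -0.19 to 0.18 after HS in wild type mice, from -0.27 to 0.33 after HS in R6/2 mice, from -0.28 to 0.32 for the difference between them and from -0.09 to 0.18 in Hsf1-/- against wild type control mice. Tfcp2l1 ranged from -0.074 to 0.55 after HS in Hsf1-/- mice and from -0.066 to 0.27 in R6/2 against wild type control mice, and Lrrc30 from -0.52 to 0.22 for the difference of the HS responses of Hsf1-/- and wild type mice.

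Counts over all genes moved by over 1.5 times as follows. RLE size factors called 6 genes after HS in Hsf1-/- mice. Library size only called 3 after HS in R6/2 mice and 6010 in R6/2 against wild type control mice (5756 up and 254 down, against 757 and 954 with TMM). It also moved the split after HS in wild type mice from 219 up and 64 down to 161 and 155, and in Hsf1-/- against wild type control mice from 105 and 161 to 63 and 151. No filter called 13 after HS in R6/2 and 28 in Hsf1-/- mice. The replicate block, added although replicate numbers were not taken to pair the samples, called 9 after HS in Hsf1-/- mice. It put Odf3l2 past the threshold after HS in wild type mice (adjusted p = 0.014, edgeR) and changed no other call of the 5 genes. Only the groups compared called 8 after HSP990 in R6/2 mice, 598, 10 and 98 after HS in wild type, R6/2 and Hsf1-/- mice, 492 and 766 in R6/2 and Hsf1-/- against wild type control mice, 0 and 44 for the differences of their HS responses from wild type, and 23 for HSP990 against HS in R6/2 mice. DESeq2 called 376 after HSP990 in R6/2 mice, 542, 127 and 161 after HS in the 3 genotypes, 733 in Hsf1-/- against wild type control mice, 34 and 40 for the differences of the HS responses, and 442 for HSP990 against HS. With 1 mouse left out the counts ran from 50 to 228 after HSP990 in R6/2 mice, from 40 to 123, 3 to 500 and 0 to 28 after HS in the 3 genotypes, from 258 to 1885 and 12 to 42 in R6/2 and Hsf1-/- against wild type control mice, from 0 to 90 and 10 to 16 for the differences of the HS responses, and from 98 to 454 for HSP990 against HS in R6/2 mice. With 2 mice per group, a left-out mouse leaves a lone sample that is assumed to vary like the other groups. The HSP990 level of Odf3l2 in R6/2 mice rests on 9 and 38 counts, so its fold carries wide counting error.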
